A study of Bos taurus with 12 samples.

Results

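EPCAM, SPINT1, MUC1, LAMB3, AP1M2 and KRT8 are 6 genes used as markers of the epithelium that lines the uterus and forms its glands. They were chosen by name as a gauge of how much epithelium each endometrium sample held, and not for their values in any comparison, although earlier results of these arrays were known. Each was represented by 1 probe, so they are 6 of the 6862 genes that could be named on the array, and 6 of the 5946 named genes left after dim probes were removed. Each stood well above background on every one of the 12 arrays, and no marker spot was saturated or had an outlier flag.

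The endometrium lines the inside of the uterus, and it was sampled by biopsy at day 15 of the cycle in cows of the Japanese-Black breed. The 4 groups of 3 arrays were the uterine horn next to the ovary with the corpus luteum (CL side) in summer, the CL side in autumn, the opposite horn (non-CL side) in summer and the non-CL side in autumn. Summer meant early September and autumn mid-November, over 2 consecutive years, and the labels give no age and no treatment. The corpus luteum is the ovarian body that secretes progesterone. The labels do not say whether replicates came from separate animals or how the years fall over the groups, so p-values measure only the spread between these samples.

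A simple columnar epithelium covers the bovine endometrium and dips into the stroma as tubular glands. Its cells are held together by lateral junctions, carry mucins on their apical face, contain simple-type keratins and rest on a laminin-containing basement membrane, while the stroma beneath consists largely of fibroblasts and collagen. RNA of a whole biopsy mixes these compartments, so fewer epithelial cells and less marker RNA per epithelial cell cannot be told apart in such bulk samples.

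The probes that measured the 6 markers are shown because each marker's values rest on a single oligonucleotide. Printed are bases 31 to 60 of each 60-base probe, 5′ to 3′ as deposited. Capitals mark AATAAA or ATTAAA, the sequences that signal polyadenylation near the end of a messenger RNA.
EPCAM: cATTAAAtagctgctttcctatttactttg
SPINT1: cgggccagagtccactcagtggAATAAAgt
MUC1: gctgAATAAAatgcagacctcctccacgcc
LAMB3: acaagggaaaagtccAATAAAaatcttggg
AP1M2: gagttttaggatggcATTAAAaagatgaat
KRT8: tgtaagcgtctttttcagAATAAAtccaat
All 6 probes held 1 of these hexamers, which are found on the deposited strand of 14.89% of the 15208 non-control probes and on the other strand of 7.029%. A match describes these letters and shows no polyadenylation site in these samples. The file lists EPCAM under its older symbol TACSTD1, AP1M2 as MGC127475, and SPINT1 and LAMB3 by locus names, whose current symbols came from the gene table. Genome positions are not used here, as no label or file header names the array's genome build.

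Signals are on the log2 scale relative to the 75th percentile of the same array, so 0 is the level of that percentile and a difference of 1 is a doubling. Values of different probes are not comparable as levels, and each marker was compared only with itself across arrays. This percentile lay between 3516 and 4418 units of processed signal on 11 arrays. It was 2007 on replicate 2 of CL side summer, referred to as the dim array. The median correlation of this array with the rest was 0.928, against 0.979 to 0.986 for the other arrays. The arrays lay on 2 slides, each with 1 scan time. The first held all 6 summer arrays and replicate 1 of both autumn groups, and the second held only autumn arrays, the other 4.

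In the CL-side season comparison all 6 epithelial markers had a higher mean in summer than in autumn, by 0.54 to 1.24 on the log2 scale, with a median of 0.97. None passed the test, and neither did any other probe: limma called 0 of 12381 probes (0.0%) at an adjusted p of 0.05, while 1228 probes had an unadjusted p under 0.05. On the non-CL side the median of the 6 differences was 0.0038, with 3 markers higher and 3 lower. The group means spread most on the CL side, where summer stood highest of the 4 groups for all 6 markers and autumn stood lowest for 5 of them.

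**Figure D1:**
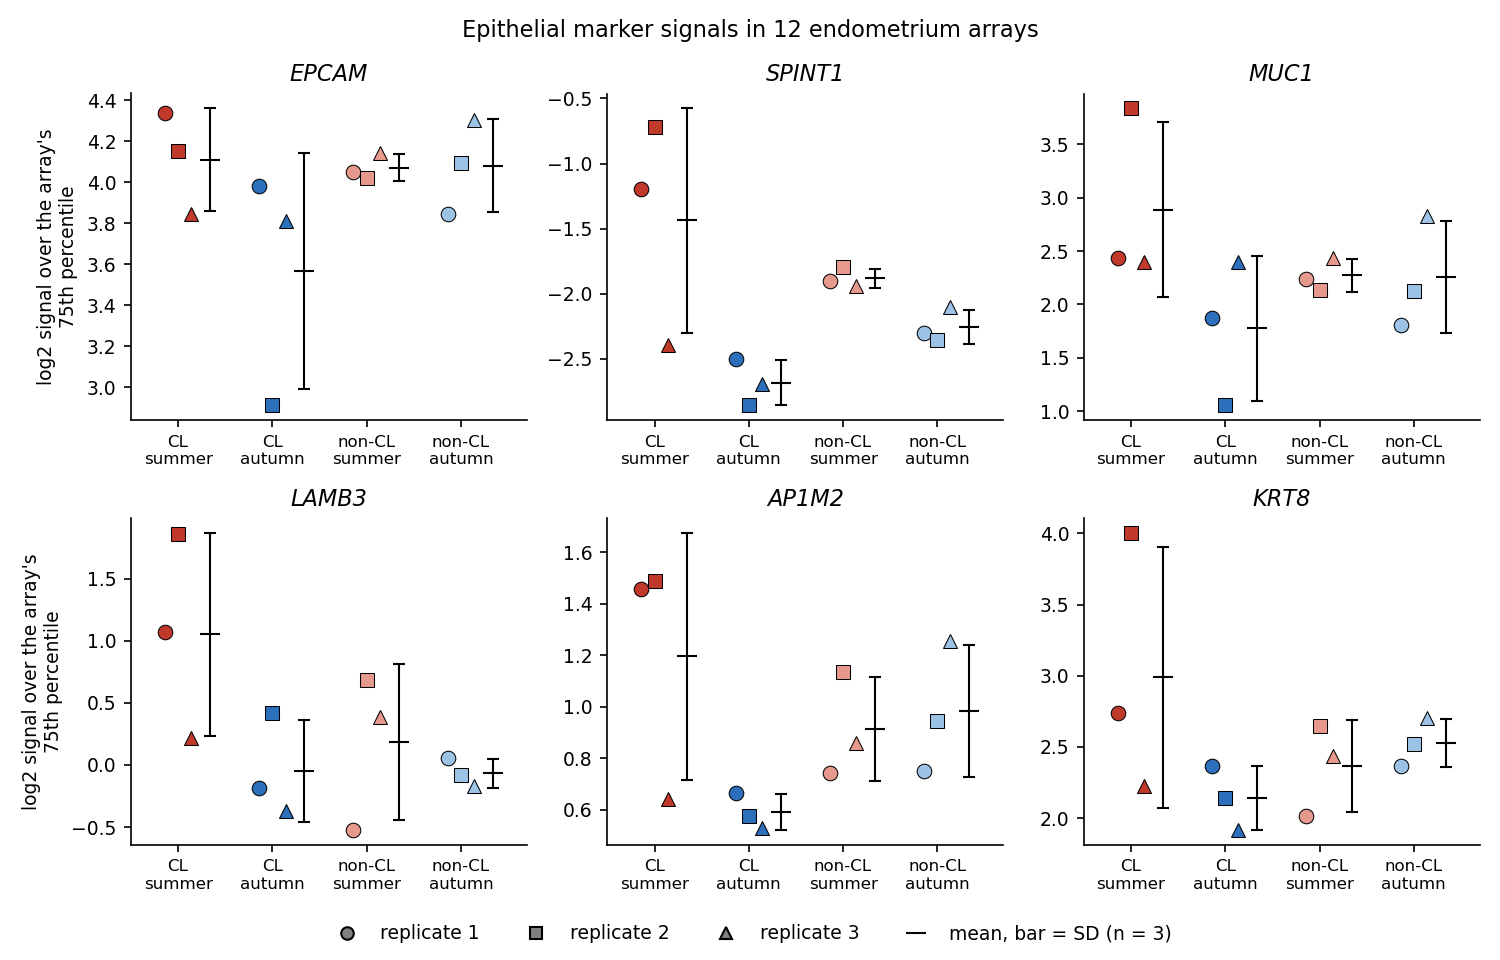
Log2 signal of the 6 epithelial markers (y axes, relative to each array's 75th percentile) on the 12 arrays, by group (x axes); symbols are replicates 1, 2 and 3, and black bars are the mean and SD of 3 arrays. CL side summer replicates 1 and 2 lie high for most markers, with AP1M2 at 1.46 and 1.49, and the CL side autumn arrays lie low, with SPINT1 between −2.85 and −2.50.

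EPCAM encodes an adhesion molecule of the lateral membrane found on most simple epithelia. Its log2 signal on the CL side was 4.34, 4.15 and 3.84 in summer, against 3.98, 2.91 and 3.81 in autumn. The non-CL-side values were 4.05, 4.02 and 4.14 in summer, against 3.85, 4.09 and 4.30 in autumn. CL side autumn replicate 2 stood alone at the bottom, and the other 11 arrays lay within 3.81 to 4.34. EPCAM on the CL side averaged 4.11 ± 0.25 in summer and 3.57 ± 0.58 in autumn (SD, n = 3 each), and the seasons overlapped. The difference was 0.54 ± 0.26 (SE), or 1.46-fold with a 95% interval of 0.974 to 2.18, and it did not pass limma's test (adjusted p = 0.501). Without CL side autumn replicate 2 it was 0.21. On the first slide alone, where a single CL-side autumn array remains, it was 0.13.

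KRT8, keratin 8, is an intermediate filament protein of simple epithelia. Its log2 signal on the CL side was 2.74, 4.0 and 2.22 in summer, against 2.37, 2.14 and 1.92 in autumn. In the opposite horn it was 2.01, 2.65 and 2.44 in summer, against 2.37, 2.52 and 2.70 in autumn. The dim array was the highest of the 12, and the other 11 lay within 1.92 to 2.74. The CL-side means were 2.99 ± 0.92 in summer and 2.14 ± 0.23 in autumn (SD, n = 3 each), a difference of 0.85 ± 0.38 (SE; 1.80-fold, 95% interval 1.01 to 3.21; limma adjusted p = 0.501). The seasons overlapped, since CL side summer replicate 3 lay below CL side autumn replicate 1. Without the dim array the difference was 0.34, and without CL side summer replicate 3 it was 1.23.

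MUC1 encodes a transmembrane mucin of the apical surface, where it is part of the coat that faces the uterine lumen. Its CL-side log2 signal was 2.43, 3.84 and 2.39 in summer, against 1.87, 1.05 and 2.40 in autumn. Non-CL-side arrays read 2.24, 2.14 and 2.44 in summer, against 1.80, 2.13 and 2.83 in autumn. The array that stood highest was again the dim one and the array that stood lowest was again CL side autumn replicate 2, a range of 2.78, the widest of the 6 markers. The CL side averaged 2.89 ± 0.82 in summer and 1.78 ± 0.68 in autumn (SD, n = 3 each), and the seasons overlapped between 2.39 and 2.40. The difference of 1.11 ± 0.44 (SE) was 2.16-fold, with a 95% interval of 1.1 to 4.26, and limma's adjusted p was 0.496. It was 0.64 without the dim array.

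LAMB3 encodes the beta 3 chain of laminin-332, a basement membrane laminin that anchors epithelial cells. CL-side arrays gave log2 signals of 1.07, 1.86 and 0.22 in summer, against −0.19, 0.42 and −0.37 in autumn. The opposite horn read −0.52, 0.69 and 0.39 in summer, against 0.057, −0.084 and −0.17 in autumn. The non-CL side summer arrays of LAMB3 spanned more than its autumn arrays on either side, and its lowest value of all was non-CL side summer replicate 1. The CL side averaged 1.05 ± 0.82 in summer and −0.049 ± 0.41 in autumn (SD, n = 3 each), and 1 summer array lay inside the autumn range. The difference was 1.1 ± 0.41 (SE; 2.14-fold, 95% interval 1.14 to 4.05; limma adjusted p = 0.496), and 0.70 without the dim array. LAMB3 was the marker with the largest difference between sides in summer, 0.87 ± 0.41 (SE; limma adjusted p = 0.984), with CL-side arrays on average higher; it was 0.46 without the dim array and 0.51 without non-CL side summer replicate 1.

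SPINT1 encodes a Kunitz-type inhibitor of serine proteases on the surface of epithelial cells, known from human and mouse work to restrain matriptase and the activator of hepatocyte growth factor. Its CL-side log2 signal was −1.20, −0.72 and −2.39 in summer, against −2.50, −2.85 and −2.69 in autumn. In the opposite horn it was −1.90, −1.80 and −1.94 in summer, against −2.30, −2.35 and −2.10 in autumn. SPINT1 was the only marker whose summer and autumn arrays did not overlap on either side, summer being higher on both, although on the CL side the gap between replicate 3 of summer and replicate 1 of autumn was narrow. The CL side averaged −1.44 ± 0.86 in summer and −2.68 ± 0.17 in autumn (SD, n = 3 each). The difference was 1.24 ± 0.34 (SE), or 2.37-fold with a 95% interval of 1.42 to 3.97 (limma unadjusted p = 0.00376, adjusted p = 0.496), and 1.89% of all probes tested had a larger one. The non-CL-side difference was 0.37 ± 0.34 (SE; limma adjusted p = 1).

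AP1M2 encodes the mu 1B subunit of the AP-1 adaptor, which sorts proteins to the basolateral membrane of polarised epithelial cells. CL-side arrays gave log2 signals of 1.46, 1.49 and 0.64 in summer, against 0.67, 0.57 and 0.53 in autumn. The non-CL-side values were 0.74, 1.14 and 0.86 in summer, against 0.75, 0.95 and 1.26 in autumn. AP1M2 had the narrowest range of the 6 markers over the 12 arrays, 0.96, and its CL-side autumn arrays lay within 0.14 of each other at the foot of that range. The CL side averaged 1.20 ± 0.48 in summer and 0.59 ± 0.069 in autumn (SD, n = 3 each), and CL side summer replicate 3 lay just below the highest autumn array. The difference was 0.61 ± 0.23 (SE; 1.52-fold, 95% interval 1.06 to 2.18; limma adjusted p = 0.496).

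**Figure D2:**
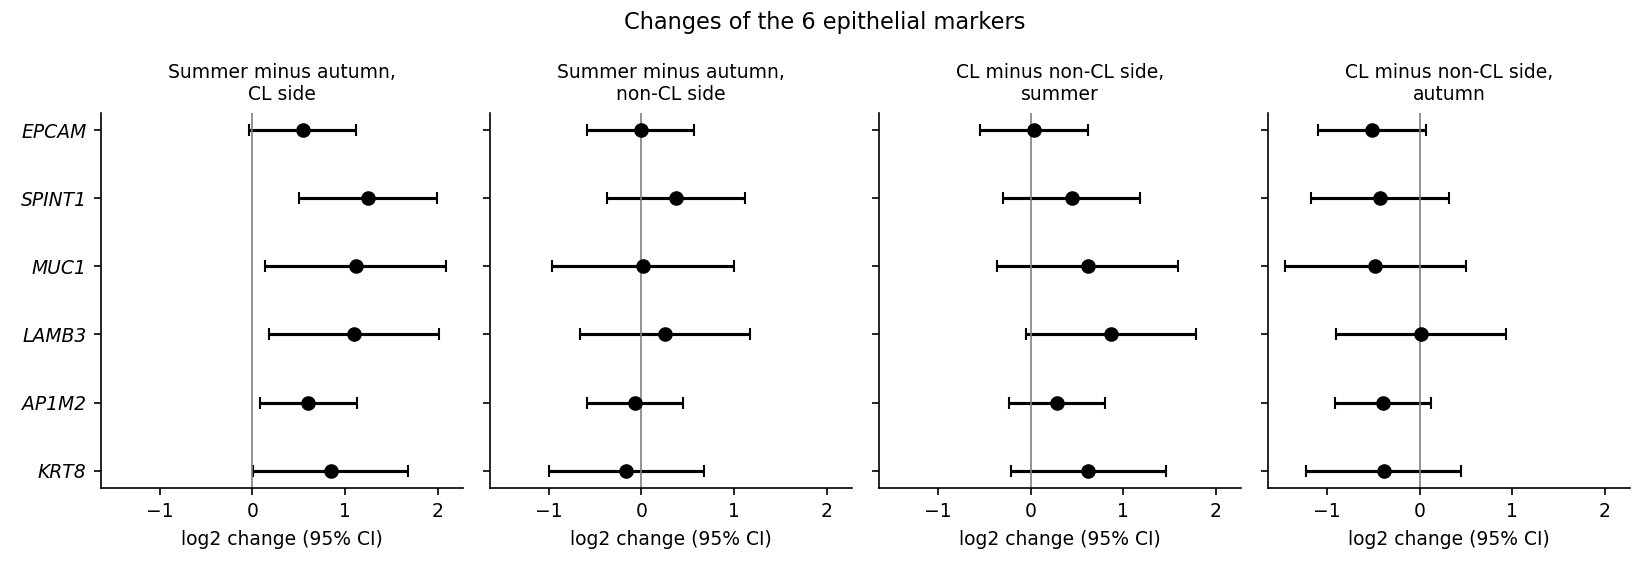
Log2 change of each marker (x axes) with limma's 95% confidence interval (CI), as summer minus autumn on each side and as CL side minus non-CL side in each season. On the CL side the 6 season changes lie between 0.54 and 1.24, on the non-CL side between −0.16 and 0.37.

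At an unadjusted p under 0.05, 5 of the 6 markers were higher in summer on the CL side, all but EPCAM, where 6.37% of all probes tested were; none was lower, against 3.55% of probes. SPINT1 was the 1 marker of 6 with no overlap between the CL-side seasons, against 7.97% of probes with no overlap and summer higher and 5.02% with summer lower. The median difference over all probes was 0.023. Without the dim array the markers' median was 0.58 and 1 of the 6 had an unadjusted p under 0.05, as 678 of 12370 probes did in that fit, 423 of them higher in summer. Without CL side summer replicate 3 the median was 1.29 and all 6 had an unadjusted p under 0.05, as 2084 of 12381 probes did there, 1080 of them higher. SPINT1 then passed limma's test with a difference of 1.72 (adjusted p = 0.031), as 1 of 4 probes called in that fit. Within the first slide, with 3 CL-side summer arrays against 1 autumn array, all 6 differences stayed above 0 with a median of 0.82 and none had an unadjusted p under 0.05.

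**Figure D3:**
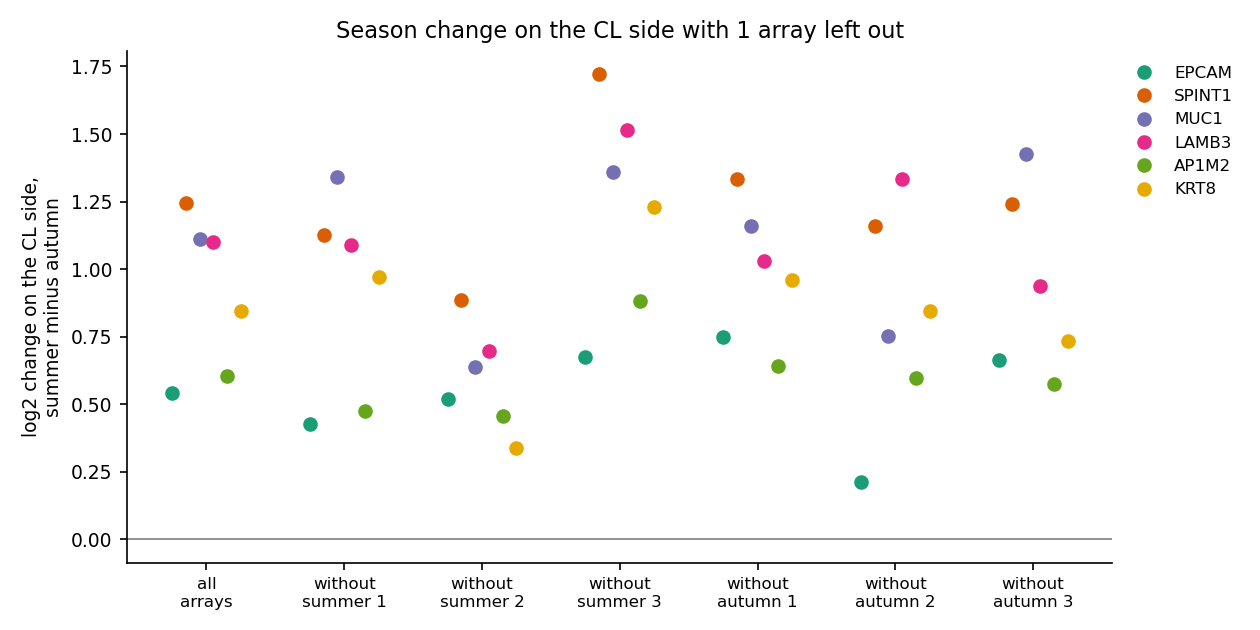
Season change of each marker on the CL side (y axis, log2, summer minus autumn) with all arrays and with each of the 6 CL-side arrays left out in turn (x axis). All points lie above 0; leaving out summer 2, the dim array, gives the lowest median, 0.58, and leaving out summer 3 the highest, 1.29.

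The non-CL-side seasons lay close together for 5 markers. The differences were −0.0098 for EPCAM, 0.017 for MUC1, −0.071 for AP1M2, −0.16 for KRT8 and 0.25 for LAMB3. Their 95% intervals were wide, from −0.59 to 0.57 for EPCAM and from −0.96 to 0.99 for MUC1, so seasonal differences of moderate size were not detectable with 3 arrays a group. Limma called 0 of 12383 probes (0.0%) there, 139 probes had an unadjusted p under 0.05, and no marker was among them. SPINT1 was the 1 marker of 6 without overlap, against 2.62% of probes with no overlap and summer higher and 3.45% with summer lower.

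With the same-numbered horns of a season averaged, the 6 season differences were 0.27 for EPCAM, 0.34 for KRT8, 0.56 for MUC1, 0.67 for LAMB3, 0.81 for SPINT1 and 0.27 for AP1M2, all higher in summer. Limma called 0 of 12367 probes (0.0%), and 492 had an unadjusted p under 0.05. SPINT1 was the only marker among these (0.81 ± 0.24 SE, limma unadjusted p = 0.0141, adjusted p = 0.894), and 2.68% of all probes were higher in summer at that p and 1.3% lower. With the replicate number as a block LAMB3 joined it (limma unadjusted p = 0.019), and 693 probes had an unadjusted p under 0.05, 512 of them higher. With 1 replicate of a season left out, the difference ranged from 0.018 to 0.52 for KRT8, 0.10 to 0.38 for EPCAM, 0.14 to 0.42 for AP1M2, 0.35 to 0.85 for LAMB3, 0.35 to 0.87 for MUC1 and 0.61 to 1.06 for SPINT1. Without summer replicate 2, whose CL-side array is the dim one, KRT8 was 0.018, AP1M2 0.14, LAMB3 0.35, MUC1 0.36 and the median 0.31, against 0.45 with all arrays. The lowest EPCAM and MUC1 differences came without autumn replicate 2, the highest MUC1 difference without autumn replicate 3, and the highest KRT8 and AP1M2 differences without summer replicate 3. On the first slide alone EPCAM was 0.18. SPINT1 and LAMB3, 2 of 6 markers, had summer means above all autumn means, as did 5.46% of probes, while 5.14% had them below.

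The next question was whether the markers differed between both horns within a season. In summer all 6 were higher on the CL side on average, by 0.041 for EPCAM, 0.28 for AP1M2, 0.44 for SPINT1, 0.62 for MUC1, 0.62 for KRT8 and 0.87 for LAMB3. Their median was 0.53, against −0.0060 for all probes. Without the dim array the median was 0.13, and without CL side summer replicate 3 it was 0.89. No marker passed: limma called 0 of 12389 probes (0.0%), 175 probes had an unadjusted p under 0.05, and 0 of 6 markers did, against 0.977% of probes that were higher on the CL side at that p. When the fit had the replicate number as a block this held for 422 probes, LAMB3 among them (limma unadjusted p = 0.042). The ranges of both sides overlapped for every marker; 1.88% of probes lay higher on the CL side without overlap and 1.65% lower.

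In autumn the sign was the opposite for 5 markers. EPCAM was lower on the CL side by a difference of −0.51, MUC1 by −0.48, SPINT1 by −0.43, AP1M2 by −0.39 and KRT8 by −0.39, while LAMB3 differed by 0.018. The median was −0.41. Limma called 0 of 12378 probes (0.0%) and 230 had an unadjusted p under 0.05 (526 with the replicate number as a block), with 0 of 6 markers among them, against 1.06% of probes lower at that p. SPINT1 and AP1M2, 2 of 6 markers, lay lower on the CL side without overlap, as did 5.55% of probes. Only replicate 1 of each side lay on the first slide in autumn, and there EPCAM, MUC1 and KRT8 were not lower on the CL side, with differences of 0.14, 0.069 and 0.0038.

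Differences between same-numbered horns showed which pairs carried these means. In summer the CL side minus non-CL side difference was above 0 for all 6 markers in pair 1 (median 0.71) and in pair 2 (median 1.12), and below 0 for all 6 in pair 3 (median −0.22). The CL-side member of pair 2 was the dim array. The largest single difference of the summer pairs was MUC1 in pair 2, at 1.70, followed by LAMB3 in pair 1, at 1.60. In autumn 3 of 6 markers were above 0 in pair 1 (median −0.040), 1 of 6 in pair 2 (LAMB3, at 0.50; median −0.44) and 0 of 6 in pair 3 (median −0.54). EPCAM and MUC1 in autumn pair 2, at −1.18 and −1.08, were the lowest differences of all pairs.

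**Figure D4:**
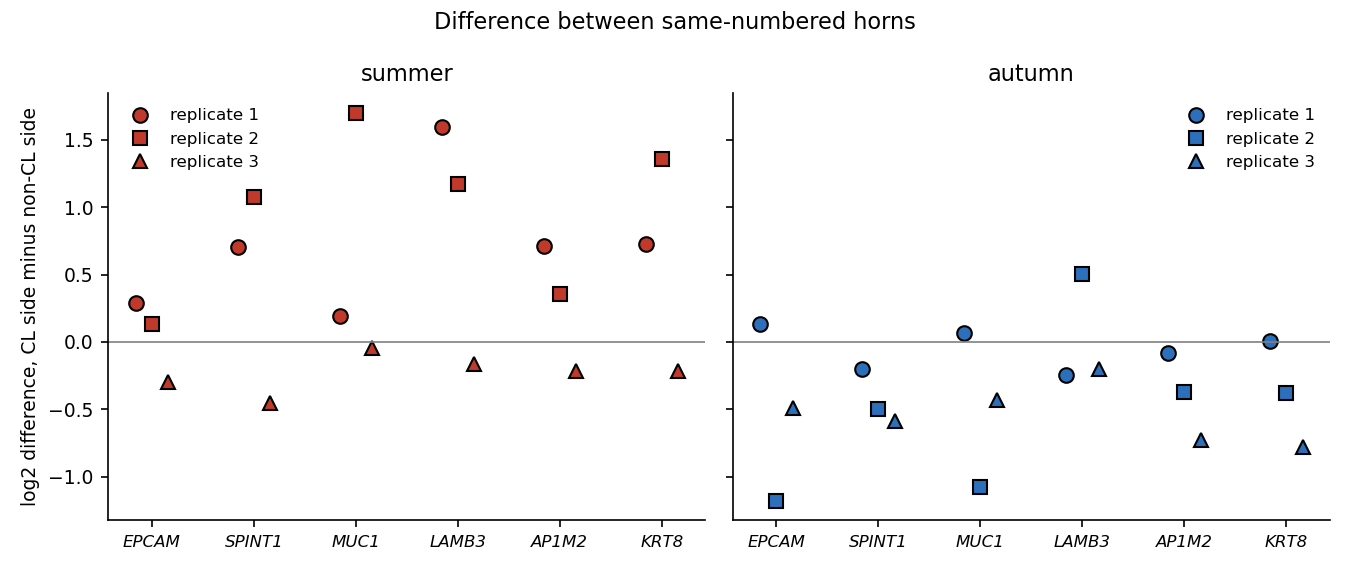
CL side minus non-CL side log2 difference (y axis) of each marker (x axis) in the 3 same-numbered pairs of horns of each season. Summer pairs 1 and 2 lie above 0 for all 6 markers and summer pair 3 below 0, and in autumn pairs 2 and 3 lie below 0 for all markers except LAMB3 in pair 2.

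The season difference was larger on the CL side than on the non-CL side for all 6 markers, by 0.55 for EPCAM, 0.68 for AP1M2, 0.85 for LAMB3, 0.87 for SPINT1, 1.01 for KRT8 and 1.1 for MUC1. The test of that difference itself called no marker: limma's adjusted p was 0.999 for each, 0 of 12375 probes were called (0.0%), and 233 had an unadjusted p under 0.05, 0 of 6 markers among them, against 1.26% of probes that were higher at that p. The median of the 6 was 0.86, and it was 0.52 without the dim array. On the first slide alone EPCAM gave −0.096.

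Ordered by mean, the groups ran CL side summer, non-CL side summer, non-CL side autumn, CL side autumn for SPINT1 and MUC1, and CL side summer, non-CL side autumn, non-CL side summer, CL side autumn for EPCAM, AP1M2 and KRT8. LAMB3 alone had non-CL side autumn at the bottom, 0.018 below CL side autumn. For SPINT1 the steps from non-CL side summer to non-CL side autumn and on to CL side autumn, 0.37 and 0.43, exceeded the larger SD of the 2 groups compared, and the groups did not overlap. Of all probes, 2.62% fell without overlap from summer to autumn on the non-CL side. In autumn 5.55% lay lower on the CL side without overlap. The step between the groups at the top, 0.44 for SPINT1, was within the SD of 0.86 in CL side summer. AP1M2 also had a step beyond the larger SD without overlap, 0.32 from non-CL side summer to CL side autumn. The last step of EPCAM, 0.50, between the same groups, had no overlap but lay under the larger SD of 0.58. These 2 groups differ in both season and side, and the share of all probes without overlap between them was not counted. The groups were ordered by the same means, so the steps are descriptions only. The top step of LAMB3, 0.87, exceeded the larger SD of 0.82, but the groups overlapped.

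Replicates of 1 group differed among themselves most in CL side summer for every marker except EPCAM, which spread most in CL side autumn. The pooled SD within groups was 0.60 for MUC1, 0.56 for LAMB3, 0.51 for KRT8, 0.45 for SPINT1, 0.34 for EPCAM and 0.29 for AP1M2, against a median of 0.31 over all probes that passed the filter. Over the 12 arrays the dim array ranked in the top 3 for all 6 markers and CL side summer replicate 1 for 5 of them. CL side summer replicate 3 ranked between 6 and 10. CL side autumn replicates 2 and 3 each ranked in the bottom 3 for 5 markers.

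The markers varied together over the arrays to unequal degrees. Pearson's r over the 12 arrays was above 0 for all 15 pairs of markers, from 0.13 between EPCAM and LAMB3 to 0.88 between SPINT1 and AP1M2, with a median of 0.71. Without the dim array the median was 0.56 and the range −0.10 (MUC1 and LAMB3) to 0.89 (AP1M2 and KRT8). These are descriptions over arrays that share groups, slides and scaling.

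A score, the mean over the 6 markers of the log2 difference from each marker's 12-array mean, was 0.49, 1.12 and −0.16 on the CL side in summer, against −0.28, −0.61 and −0.38 in autumn. On the non-CL side it was −0.21, 0.16 and 0.07 in summer, against −0.23, −0.11 and 0.15 in autumn. The non-CL side therefore spanned a narrow band in both seasons, while the CL side held both the top and the bottom of the scale. The same score over 12 stroma genes was −0.51, −0.98 and 0.16 on the CL side in summer, against 0.65, 0.80 and 0.19 in autumn, and lay between −0.26 and 0.07 on the non-CL side. Over the 12 arrays the scores ran opposite to each other (r = −0.88, Spearman's rho = −0.84), also without the dim array (r = −0.79), within the first slide (r = −0.87, 8 arrays) and without the 2 arrays farthest from the median epithelial score (r = −0.69). Both scores come from the same arrays and the same scaling, which ties them.

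**Figure D5:**
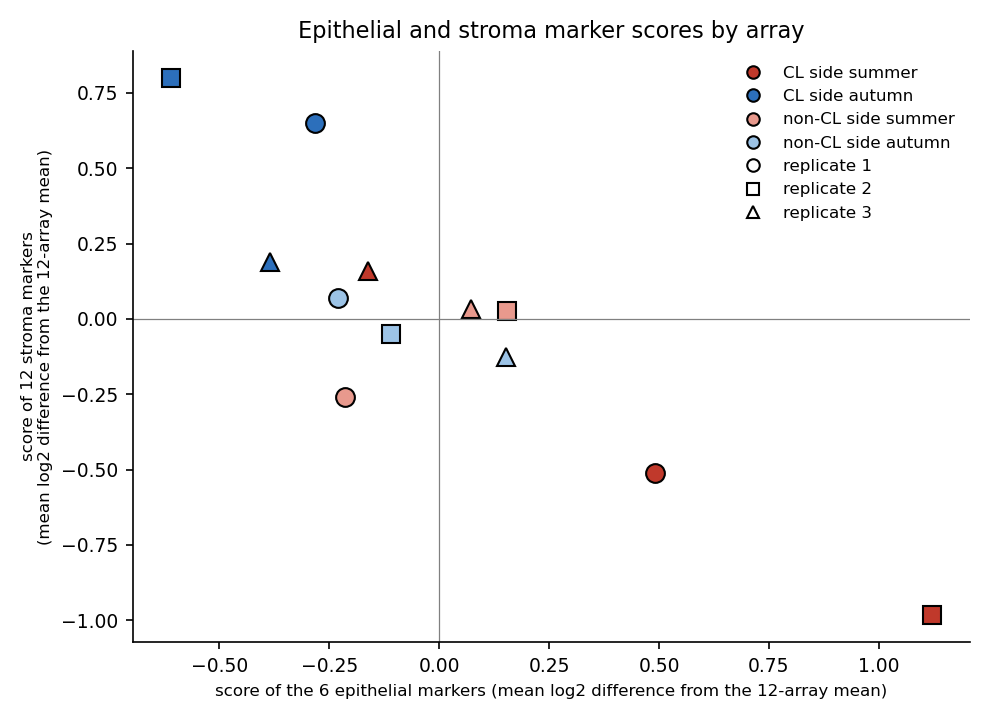
Score of the 6 epithelial markers (x axis) against the score of 12 stroma genes (y axis), both as mean log2 difference from the 12-array mean, 1 point per array; colours are groups and symbols replicates. CL side summer replicates 1 and 2 sit at high epithelial and low stroma scores, CL side autumn replicates 1 and 2 at the other end, and the non-CL arrays near the middle.

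The CL side had lower summer means for all 12 stroma genes measured, their median difference being −1.05 (−0.78 without the dim array), and none passed limma's test. COL1A1, a chain of type I collagen, averaged −3.31 in summer and −1.78 in autumn, a difference of −1.53 ± 0.39 (SE; limma adjusted p = 0.496). THY1, a surface protein of fibroblasts, differed by −1.06 ± 0.31 (SE; limma adjusted p = 0.496). On the non-CL side the stroma median was −0.037. The part of tissue make-up in the marker differences was not tested.

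Other epithelial genes were followed by list, and no gene of any list passed limma's test in the CL-side season comparison. Of 17 junction genes measured, 12 were higher and 5 lower in summer, with a median of 0.34 that was 0.21 without the dim array, 0.14 without CL side autumn replicate 2, −0.0069 on the first slide alone and 0.099 with the authors' deposited values. PARD6B, a cell polarity protein, had the smallest p of these (0.89 ± 0.31 SE; limma adjusted p = 0.496). CLDN4, a tight junction protein, differed by 0.76 and OCLN, occludin, by 0.50. CDH1, E-cadherin, a defining junction protein of epithelium and singled out here after its values were seen, averaged 0.47 ± 1.46 in summer and 1.60 ± 0.83 in autumn (SD, n = 3 each), a difference of −1.14 ± 0.81 (SE; limma adjusted p = 0.593). Its CL-side values were −1.19, 1.55 and 1.04 in summer, against 0.71, 2.35 and 1.75 in autumn, so CDH1 lay opposite to the 6 markers without a difference beyond its spread.

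Of 7 mucin and apical membrane genes, 6 were higher in summer, with a median of 0.48 (0.27 on the first slide alone, 0.79 without CL side autumn replicate 1). PIGR, the receptor that carries immunoglobulin A across epithelia, stood far from the rest. Its log2 signal on the CL side was 1.87, 3.76 and −0.25 in summer, against −2.31, −2.87 and −2.58 in autumn, without overlap, and on the non-CL side −2.83, −0.57 and −1.44 in summer, against −2.29, −3.64 and −1.99 in autumn. The CL-side difference was 4.38 ± 0.89 (SE; limma adjusted p = 0.496). PERP, a desmosome-associated membrane protein, differed by 0.93. Of 7 epithelial transcription and splicing factors all were higher, with a median of 1.07 (0.48 without the dim array, 0.66 with the authors' deposited values). ELF5 had the largest difference of them, 4.48 ± 1.34 (SE), but its dim-array value of 2.29 stood far above −3.72 and −2.65 on the other CL-side summer arrays. GRHL2, a grainyhead-like factor of epithelial cells, differed by 0.67 and EHF, an ETS factor, by 1.25.

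The partners of single markers gave mixed values. SPINT2, the second Kunitz inhibitor of this kind, differed by 0.65 ± 0.30 (SE) and ST14, matriptase, by 0.39 ± 0.21, both higher in summer. Over the 6 proteases, inhibitors and receptors measured, 4 were higher and the median was 0.31. This median was 0.20 without the dim array, with 3 higher, 0.50 with the slide as a block and −0.044 with the authors' deposited values. The 4 other AP-1 subunits measured, with 3 higher and 1 lower, had a median of 0.039, which was −0.17 without the dim array and −0.010 without CL side autumn replicate 1, but 0.19 without CL side summer replicate 1 and 0.14 on the first slide alone. AP1M1, the widely expressed mu 1A counterpart, differed by 0.047 ± 0.17 (SE), and AP1S1, a small subunit, by −0.89 ± 0.30. The simple keratins KRT19 and KRT7 had a median of 1.19. It was 0.051 without the dim array, 0.76 with the authors' deposited values and 1.85 without CL side summer replicate 3. KRT19 read 3.52 on the dim array, against 0.97 and 0.052 on the other CL-side summer arrays. Of the laminin-332 and hemidesmosome list only PLEC, plectin, was measured, with a difference of 0.12. The difference of PLEC was −0.10 without the dim array and −0.079 with the authors' deposited values, but 0.34 without CL side summer replicate 1 and 0.26 on the first slide alone.

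Genes listed as products of the uterine glands ran in both directions. Of 5 measured on the CL side, 2 were higher and 3 lower in summer, and their median was −0.33. It was 0.10 without the dim array, 0.037 without CL side autumn replicate 1, −0.77 without CL side summer replicate 1, −0.56 without CL side autumn replicate 2 and −1.06 on the first slide alone. Their score correlated with the epithelial score at r = 0.049 over the 12 arrays. SERPINA14, the uterine milk protein of ruminants, was −1.20, −0.67 and −1.16 in summer, against 2.79, 1.48 and −0.64 in autumn (difference −2.22 ± 0.89 SE; limma adjusted p = 0.496). SPP1, also on this list, was −1.95, −2.69 and −1.67 in summer, against −0.27, 0.91 and −2.81 in autumn, and the seasons overlapped. IGFBP1, a secreted protein that binds insulin-like growth factors, differed by 2.01 and CST6, a cystatin, by 0.97. By comparison the mucin and apical membrane score correlated with the epithelial score at r = 0.91 (0.88 without the dim array). For the junction score r was 0.78 (0.68 without the dim array), and for the transcription and splicing factors 0.85 (0.55 without it). The other AP-1 subunits gave r = −0.33. Leukocyte genes, of another cell type, gave r = 0.76 (0.47 without the dim array). Without the 2 arrays farthest from the median epithelial score, r was 0.17 for leukocyte genes and 0.47 for transcription and splicing factors. It was 0.74 for junction genes and 0.82 for mucin and apical membrane genes.

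Markers of other cell types also varied on the CL side between seasons, and their part in the differences of the 6 markers was not tested. All 8 ciliated-cell genes were higher in summer, with a median of 1.25. The median was 0.82 without the dim array, with 7 of 8 higher, 0.76 with the authors' deposited values, 1.88 on the first slide alone and 2.07 with the slide as a block. Their score ranged from 0.13 to 1.32 in CL side summer, against −1.27 to 0.29 in CL side autumn. Of 15 leukocyte genes 13 were higher, with a median of 0.62 (0.17 with the authors' deposited values), and their score ranged from 0.34 to 0.85 in summer, against −0.42 to −0.017 in autumn. Of 6 genes of squamous and basal epithelium, as found in cervix and vagina, 5 were higher, with a median of 0.71 (0.46 without CL side summer replicate 1, 0.45 with the authors' deposited values), and their mean score ranged from 0.098 to 1.67 in CL side summer, against −0.75 to −0.37 in CL side autumn. KRT15, a basal-cell keratin, read 1.47, 3.57 and −1.08 in CL side summer, against −3.51, −4.57 and −3.27 in CL side autumn. Its order of the CL side summer arrays was that of PIGR. The squamous and basal score correlated with that of the 6 markers at r = 0.93 over the 12 arrays, 0.96 within the first slide, 0.83 without the dim array and 0.69 without the 2 arrays farthest from the median epithelial score. The 9 endothelial genes had a median of 0.0096, which took either sign as settings changed, from −0.054 without CL side autumn replicate 2 to 0.23 without CL side summer replicate 1. The median of the 4 smooth muscle genes was 0.29, but −0.53 without the dim array, near 0 without CL side autumn replicate 2, −0.40 without CL side autumn replicate 3, −0.25 with the slide as a block and −1.74 on the first slide alone, and 1.41 and 1.05 without CL side autumn replicate 1 and CL side summer replicate 3. ALAS2, the 1 red blood cell gene measured, differed by 0.31 (0.13 without the dim array).

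The genes whose values over the 12 arrays were most like the epithelial score, out of 5858 with a symbol and a value on every array, were TMEM184A (r = 0.98), ZFHX3 (0.95), DENND2D (0.94), IFNLR1 (0.94) and PARD6B (0.94). Without the dim array these 5 lay between 0.87 and 0.95. The most opposite were PRKRA (−0.94), PDCL (−0.94), GSN (−0.93), PTN (−0.93) and GHR (−0.93), between −0.87 and −0.81 without the dim array. IFNLR1 encodes a chain of the interferon lambda receptor, GSN the actin-severing protein gelsolin, PTN the growth factor pleiotrophin and GHR the growth hormone receptor. In all, 32 genes had an r above 0.9 and 28 below −0.9.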

How the data were processed

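The 12 deposited scanner files come from Feature Extraction 9.5.1.1, per the file headers (9.5 per the submitters' processing notes). Their processed signal is a linear spot intensity, background-subtracted and detrended within the array, per the file headers, from RNA (400 ng) labelled with Cy3. A table of log2 values deposited by the authors does not state its scale or centring; its columns had medians of −2.79 to −2.61, correlated with the scanner values at 0.970 to 0.995, ran in the same direction, and served as an alternative.

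Processed signals were divided by the array's 75th percentile and put on the log2 scale, with a floor of −7.28 that was not in the planned design. Control spots and 464 flagged values were left out. A probe was kept if every array of some group had it well above background (12404; 2804 were removed). A symbol came from the files or from the ARS-UCD2.0 gene table for 7190 probes, 65 had only a locus name and 7953 had none. Of several probes of a gene, which held for 225 symbols, the brightest was used.

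All comparisons used limma 3.58.1 in R 4.3.3, with Benjamini-Hochberg adjustment over all kept probes, a threshold of 0.05 and 4 group means. For both sides together, same-numbered horns were averaged first. Tests were two-sided. The number of arrays limits the precision. The scripts were tested on simulated data.

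The markers and gene lists were chosen with earlier results of these data known. All 6 markers were named, and up to 4 genes of each list with the smallest unadjusted p of the CL-side season comparison. Also named were the 5 genes most like and the 5 most opposite to the markers' score.

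Same-numbered samples deviated together from their group means. The correlation was 0.15 to 0.52 for the 6 pairs of horns of a season and 0.11 to 0.35 for the 6 pairs of seasons of a side. Different numbers gave at most 0.076 in these kinds of pairs. The deviations within a group cancel out, so positive values for same numbers draw those for different numbers down. The low values for different numbers are therefore no separate evidence. Where season and side both differed, same numbers gave as little as 0.064 and different numbers as much as 0.12. The labels give the numbers and do not say what they share, and replicate 1 of every group lay on the first slide.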

Additional observations from a re-analysis of the deposited data

How the results depend on the processing

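The alternatives were quantile normalization, the percentile over probes detected on all arrays, normexp background correction, the authors' deposited log2 values, 2 other filters on dim probes, the slide as a block, the first slide alone, the replicate number as a block and each array left out in turn. The mean over a gene's probes was not run, since each marker has 1 probe. Of 726 recomputed marker differences 703 kept their direction, and of 121 recomputed medians 120 moved by less than the spread between replicates, 0.44. The exception was season by side without CL side summer replicate 3, with a median of 1.30. With an array left out that median ranged from 0.52 to 1.30. The filters on dim probes, the replicate block and leaving out an array that a comparison does not use could not move these values. Nor could the slide as a block move the differences between sides or season by side. The first slide alone could not move the sides in summer, as it held all summer arrays. The cutoff of 0.44 is also wide beside the medians. For the sides in summer the median fell from 0.53 to 0.13 without the dim array and still counted as unmoved. The counts therefore do not measure robustness.

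With an array left out, the CL-side season comparison called 0 to 7 probes, both sides 0 to 2, the sides in summer 0 to 1, the sides in autumn 0 to 6 and season by side 0 to 1, against 0 with all arrays. The calls came without CL side summer replicate 1 (2) or 3 (4) or CL side autumn replicate 3 (7) for the season on the CL side, without summer replicate 1 for both sides, without CL side summer replicate 3 for the sides in summer and for season by side, and without CL side autumn replicate 3 for the sides in autumn. SPINT1 was the only marker called in any of them. The non-CL-side season comparison called 1 probe on the first slide alone. In these cases the cause was not tested.

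In all 23 reversals the recomputed difference was 0.25 or less in size. Some of the differences that reversed were larger with all arrays. These were 0.55 for EPCAM in season by side, and −0.51 for EPCAM, −0.48 for MUC1 and −0.39 for KRT8 between sides in autumn. On the non-CL side the season difference was 0.22 for EPCAM, 0.16 for AP1M2 and 0.0010 for KRT8 on the first slide alone, and 0.0089 for AP1M2 with the slide as a block. The summer difference between sides for EPCAM was −0.044 after quantile normalization. On the first slide alone the autumn difference between sides was 0.14 for EPCAM, 0.069 for MUC1, −0.25 for LAMB3 and 0.0038 for KRT8, and season by side for EPCAM was −0.096. With an array left out, the non-CL-side season difference ranged from −0.13 to 0.10 for EPCAM, −0.21 to 0.31 for MUC1, −0.0020 to 0.60 for LAMB3, −0.19 to 0.065 for AP1M2 and −0.30 to 0.015 for KRT8, the summer difference between sides for EPCAM from −0.072 to 0.17, and the autumn one for LAMB3 from −0.22 to 0.18.

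The replicate block left the 6 medians and every call at an adjusted p as they were, with a median of 0.97 in the CL-side season comparison; it moved the number of probes with an unadjusted p under 0.05 to 1602 there, to 244 on the non-CL side and to 548 for season by side.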

Other observations

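Smooth muscle genes varied widely between arrays in every group. Their score correlated with that of the 6 epithelial markers at r = 0.43 over the 12 arrays, 0.49 on the first slide and 0.13 without the dim array. The mean log2 difference of CNN1, DES, ACTG2 and ACTA2 from their 12-array means was 0.28, 2.09 and −0.83 on the CL side in summer, against 2.35, −0.43 and −1.24 in autumn. On the non-CL side it was −1.55, 1.21 and −0.28 in summer, against −1.25, 1.30 and −1.65 in autumn. Its SD within a group was 1.38 to 1.88, against 0.17 to 0.64 for the score of the 6 epithelial markers.

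The junction gene CDH1 was low on replicate 1 of every group. It read −1.19 in CL side summer, 0.71 in CL side autumn, −0.47 in non-CL side summer and −0.037 in non-CL side autumn on replicate 1, and lay between 0.83 and 2.35 on replicates 2 and 3. This gene was chosen after its values were seen.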
